A study of Mus musculus with 9 samples.

Results

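Ms4a4b, Ms4a4c and Ms4a6b encode small membrane proteins of the MS4A family, whose members cross the membrane in a tetraspan arrangement. The 3 genes were taken by symbol from the 16500 genes listed in the deposited expression table. They were chosen by measured values of the same libraries, their levels under active NFAT2 against Control, so those differences are given below as a description with no test. They were measured by paired-end RNA sequencing of primary CD4+ T cells from C57BL/6 mice, in 9 libraries that form 3 groups of 3. All 3 groups were retrovirally transduced: the Control group received the CTRL vector, and the others received NFAT2-CA or NFAT2-CARIT. Nfatc1 encodes NFAT2, a transcription factor that calcium and calcineurin switch on in stimulated T cells. The CA form does not need that switch, and the RIT changes weaken its pairing with AP-1 on DNA. The labels give neither the age of the mice, the time after transduction nor the share of cells that carried a vector. They also do not say whether the libraries of a group came from separate animals or cultures, so each p-value below speaks of the spread among libraries, which may be technical.

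The MS4A family takes in CD20 on B cells and the beta chain of the high-affinity IgE receptor on mast cells. Mouse T cells express a separate subset of the family. Ms4a4b is known from naive and Th1 cells, where its product sits at the surface and restrains cell division, and the products of Ms4a4b and Ms4a6b have been reported to associate with GITR (encoded by Tnfrsf18), a costimulatory receptor of the TNF receptor family. Less is known of Ms4a4c in T cells.

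The 3 genes lie on the plus strand of chromosome 19 (GENCODE M21, build GRCm38) within 126.5 kb. Ms4a4c (ENSMUSG00000024675.19) spans 11404770 to 11427246, Ms4a4b (ENSMUSG00000056290.16) spans 11443553 to 11467055, and Ms4a6b (ENSMUSG00000024677.13) spans 11516512 to 11531256. Their longest coding transcripts have 7, 7 and 8 exons. Ms4a4b and Ms4a4c are close copies: their coding sequences were identical at 622 of 678 aligned bases, or 91.7%. Ms4a6b was more distant, with 57.5% identity to Ms4a4b and 58.7% to Ms4a4c. Ms4a6b was closest to Ms4a6c, at 85.8%, and to Ms4a6d, at 81.2%.

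The stretch before each start site is shown as a description. Promoters were aligned among Ms4a4b, Ms4a4c and Ms4a6b only, and not for other genes of the cluster. A link between promoter similarity and the depth of the reduction was not tested. The 250 bases upstream of the RefSeq start sites (GRCm38.p6, plus strand) are written 5′ to 3′, with each GGAAA, the core letters of NFAT sites, in capitals. The stretches are chr19:11443308-11443557 for Ms4a4b, chr19:11407411-11407660 for Ms4a4c and chr19:11518309-11518558 for Ms4a6b. For Ms4a4c and Ms4a6b the RefSeq start site lies downstream of the GENCODE start, so these stretches fall inside the spans given above. The Ms4a4b stretch ends at about its GENCODE start.
Ms4a4b: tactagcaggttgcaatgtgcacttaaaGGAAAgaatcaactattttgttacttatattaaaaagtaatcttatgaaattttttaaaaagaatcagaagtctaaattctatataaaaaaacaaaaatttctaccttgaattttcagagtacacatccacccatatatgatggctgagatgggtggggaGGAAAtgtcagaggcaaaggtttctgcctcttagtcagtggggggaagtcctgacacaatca
Ms4a4c: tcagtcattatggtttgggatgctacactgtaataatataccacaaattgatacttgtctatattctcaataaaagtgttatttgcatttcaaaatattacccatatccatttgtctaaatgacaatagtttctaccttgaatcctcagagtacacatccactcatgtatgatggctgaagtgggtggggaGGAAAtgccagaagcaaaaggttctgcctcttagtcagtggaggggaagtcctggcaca
Ms4a6b: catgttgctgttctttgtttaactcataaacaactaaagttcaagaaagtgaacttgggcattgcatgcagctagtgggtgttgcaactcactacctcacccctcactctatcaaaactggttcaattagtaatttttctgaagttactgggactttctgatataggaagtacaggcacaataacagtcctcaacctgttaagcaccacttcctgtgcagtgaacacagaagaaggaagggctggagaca

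Over the whole 300-base windows of the RefSeq table (250 bases before the start site and 50 after it), the best local alignment of Ms4a4b with Ms4a4c covered 282 bases at 78.4% identity. The alignments of Ms4a6b reached 58.5% identity over 217 bases with Ms4a4b and 54.8% over 279 bases with Ms4a4c. GGAAA, searched on both strands, began at positions -222 and -62 of Ms4a4b and at -59 of Ms4a4c, and the later match sits in the same shared block in both genes. Ms4a6b had no GGAAA in its window. These letters are common: 61.3% of the 32851 mouse promoters in the table held at least 1 match. TGANTCA, the core of AP-1 sites with any base in the middle, occurred once in Ms4a4b, at position 23 after the start site, and in 7.81% of all promoters. TGTGGT, the RUNX core, occurred once in Ms4a4c, on the minus strand, and in 16.8% of all promoters. The interferon response letters, GAAA repeated after a gap of any 2 bases (3.44% of promoters), and the FOXO letters GTAAACA (3.65%) occurred in none of the 3 windows. The matches describe letters and not binding.

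Values are in CPM, a gene's reads scaled to a fixed total for each library, and each ± is an SD over 3 libraries unless it is named as a standard error (SE). Depth, read from the step between low values, was 19900000 to 38100000 reads per library, so that 3 reads corresponded to 0.0787 to 0.151 CPM. Nfatc1 averaged 214 ± 22.1 CPM in Control, 358 ± 32.8 with NFAT2-CA and 246 ± 6.48 with NFAT2-CARIT. The sources used here do not give whether vector reads were counted towards Nfatc1, so it is a weak check of the labels. Of the CD4 T cell markers, Cd4 averaged 1571, 1620 and 1660 CPM in the 3 groups, and no group mean of Cd3e, Cd3d, Cd3g or Trac was under 419.5 CPM. The markers were not all steady. Of 8 tested in limma against Control, 5 rose and 1 fell with NFAT2-CA, and 3 rose and 1 fell with NFAT2-CARIT. Over all genes tested, 72.0% and 75.4% were called. Cd3e averaged 419.5, 950 and 706 CPM, and Thy1, which fell, averaged 4748, 649 and 657 CPM. Of the B cell markers, Ms4a1, Pax5 and Blk were not listed. Cd79a, Cd79b and Cd22 had group means of 2.37 CPM or less and were not tested, and their means were lower under both forms. In Control, NFAT2-CA and NFAT2-CARIT, Cd79b averaged 2.37, 0.613 and 0.824 CPM and Cd79a 0.568, 0.216 and 0.367 CPM. Cd22 averaged 1.11, 0.610 and 0.445 CPM, with libraries that overlapped Control. Ighm, the other listed B cell marker, was high and lower under both forms, as the 3 Ms4a genes were: it averaged 415 CPM in Control, 208 with NFAT2-CA and 191 with NFAT2-CARIT, and fell in both comparisons with Control (log2 differences -0.99 and -1.12, adjusted p = 8.5e-11 and 1.7e-11 in limma). Its part in the Ms4a levels was not tested.

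Ms4a4b was well expressed in Control and weakly expressed under both forms of NFAT2. Its CPM were 301.5, 298.9 and 374.7 in Control replicates 1, 2 and 3. With NFAT2-CA they were 11.4, 10.9 and 17.2, and with NFAT2-CARIT 14.5, 18.0 and 18.1. Every Control library lay far above every NFAT2 library, while the libraries of the 2 NFAT2 groups overlapped. The means were 325 ± 43.0, 13.2 ± 3.51 and 16.9 ± 2.05 CPM, so that NFAT2-CA held 4.05% of the Control level and NFAT2-CARIT 5.20%. On the log2(CPM + 1) scale used for all differences, the fitted differences from Control were -4.55 ± 0.16 (SE) with NFAT2-CA and -4.19 ± 0.16 with NFAT2-CARIT.

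Ms4a4c, the close copy of Ms4a4b, started from a much lower level and was nearly absent under both forms. It stood at 16.1, 16.7 and 21.8 CPM in the Control libraries. The NFAT2-CA libraries held 0.335, 0.715 and 0.347 CPM, and the NFAT2-CARIT libraries 0.289, 0.220 and 0.0558 CPM. The group means were 18.2 ± 3.12, 0.465 ± 0.216 and 0.188 ± 0.120 CPM. In reads estimated from the depth, this was 1425 over the 3 Control libraries against 34 with NFAT2-CA and 20 with NFAT2-CARIT, and NFAT2-CARIT replicate 3 held about 1 read. The ratio of the pooled read rates, Control over NFAT2-CA, was 39.4 (exact 95% counting interval 28.1 to 57.1), and Control over NFAT2-CARIT was 85.1 (54.9 to 139.7). The 2 intervals overlap, and they leave out the spread among libraries. These read numbers are estimates, since not all low values came out whole. The fitted log2 differences from Control, -3.71 ± 0.16 (SE) and -4.01 ± 0.16, understate these ratios because 1 CPM was added before the logarithm. Ms4a4c passed the filter on low values through its Control libraries alone.

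Ms4a6b remained well expressed in all groups, and its level stepped down from Control to NFAT2-CA to NFAT2-CARIT. Control replicates 1 to 3 held 448.7, 426.1 and 565.8 CPM. The NFAT2-CA libraries lay close together at 283.8, 285.1 and 292.5 CPM, and the NFAT2-CARIT libraries held 177.7, 187.8 and 202.6 CPM. No library of one group reached the range of another. Means were 480.2 ± 75.0, 287 ± 4.71 and 189 ± 12.5 CPM, which put NFAT2-CA at 59.8% and NFAT2-CARIT at 39.4% of Control. The fitted log2 differences from Control were -0.73 ± 0.09 (SE) and -1.33 ± 0.09.

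**Figure D1:**
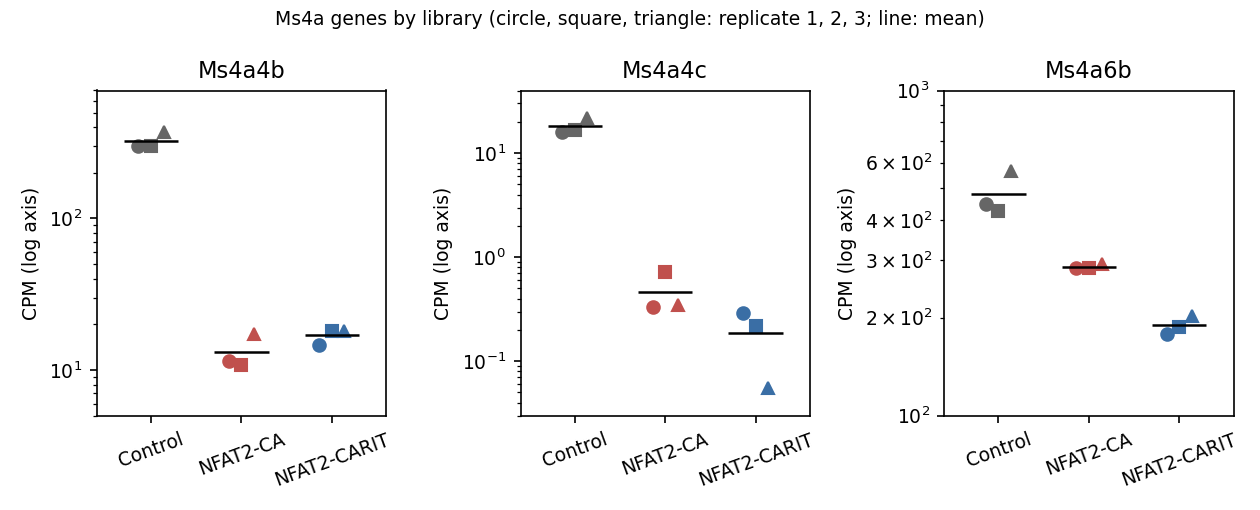
CPM of Ms4a4b, Ms4a4c and Ms4a6b in each library on a log axis, by group, with the group mean as a line; each panel has its own range. The means of Ms4a4b in the NFAT2 groups were 24.7-fold and 19.2-fold below Control, Ms4a4c sat near or below 0.715 CPM in the 6 NFAT2 libraries, and Ms4a6b formed 3 separate levels at 480.2, 287 and 189 CPM.

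The background of these differences was broad. With NFAT2-CA, 72.0% of the 9233 genes tested passed an adjusted p of 0.05 in limma against Control (31.6% higher and 40.5% lower), and for 73.0% no library of one group fell within the range of the other. With NFAT2-CARIT these shares were 75.4% called, 32.1% higher, 43.3% lower and 76.9% without overlap. All 3 Ms4a genes were lower and did not overlap with Control in either comparison, but they were chosen for it, and nothing is read from that count. The median absolute log2 difference over all genes tested was 0.35 with NFAT2-CA and 0.39 with NFAT2-CARIT. Both comparisons use the same Control libraries. In bulk RNA, fewer cells that express a gene and less RNA per cell cannot be told apart.

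The comparison of NFAT2-CARIT with NFAT2-CA was tested for the 3 genes. These groups differ in the RIT changes and also in Nfatc1 (log2 difference -0.53 ± 0.08, SE, adjusted p = 7.2e-05 in limma). The RIT changes and the level of NFAT2 can therefore not be told apart in this comparison. Over all genes tested, 34.0% passed (15.1% higher and 18.9% lower), and 49.0% had libraries that did not overlap. Ms4a6b passed: NFAT2-CARIT minus NFAT2-CA was a log2 difference of -0.60 ± 0.09 (SE, adjusted p = 9.2e-05 in limma, 95% interval -0.78 to -0.42), and all 3 NFAT2-CARIT libraries were below all 3 NFAT2-CA libraries. NFAT2-CARIT held 66.0% of the NFAT2-CA level. This call held under each alternative that was run. The authors' deposited table gives Ms4a6b a log2 ratio of -0.60 for the same contrast, with an FDR of 3.4e-05.

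Ms4a4b leaned the other way and did not pass. Its log2 difference between NFAT2-CARIT and NFAT2-CA was 0.36 ± 0.16 (SE, adjusted p = 0.11 in limma, 95% interval 0.00 to 0.72). NFAT2-CA replicate 3, at 17.2 CPM, overlapped the NFAT2-CARIT libraries, and the other NFAT2-CA libraries lay below all of them. The call depends on the setting. Without NFAT2-CA replicate 3 the limma fit gave 0.55 with an adjusted p of 0.0015. With all 9 libraries, array weights gave 0.53 (adjusted p = 0.00166). Over all alternatives run the adjusted p lay between 0.0015 and 0.279. In the authors' deposited table the log2 ratio is 0.36 with an FDR of 0.76. Ms4a4c gave -0.30 ± 0.16 (SE, adjusted p = 0.15 in limma). All 6 of its values were under the 1 CPM added before the logarithm, and the gene was in the fit only through Control, so nothing is read from this p. Its libraries did not overlap between the 2 NFAT2 groups, on about 34 and 20 reads. The authors' deposited table gives -1.22 with an FDR of 0.91. The ratio of the pooled read rates, NFAT2-CA over NFAT2-CARIT, was 2.16, with an exact 95% counting interval of 1.21 to 3.96. That interval leaves out the spread among libraries, so at this depth a difference in Ms4a4c between the 2 forms is not taken as resolved.

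The balance among the 3 genes differed between the groups. Ms4a4b amounted to 67.2%, 70.1% and 66.2% of the Ms4a6b CPM in Control replicates 1, 2 and 3. This share was 4.02%, 3.81% and 5.88% with NFAT2-CA, and 8.18%, 9.61% and 8.95% with NFAT2-CARIT. The ratio was therefore nearly constant within Control, and the 3 NFAT2-CARIT libraries were above the 3 NFAT2-CA libraries. Per kilobase of the longest coding transcript, Control held 179 CPM per kb of Ms4a6b, 68.4 of Ms4a4b and 10.6 of Ms4a4c, with no overlap between the genes. The order was the same with NFAT2-CA, at 107 for Ms4a6b, 2.77 for Ms4a4b and 0.270 for Ms4a4c. It also held with NFAT2-CARIT, at 70.7, 3.56 and 0.109 CPM per kb, and the libraries of neighbouring genes in this order were separate in each group. Ms4a4b has 7 annotated transcripts of which 1 is coding, and the longest coding length may not be the one the reads came from, so levels per kb are rough.

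Reads can be shared between these copies. Of the 50-base words in annotated transcripts, 135 occurred in both Ms4a4c and Ms4a4b, which was 7.73% of those of Ms4a4c and 1.53% of those of Ms4a4b. Ms4a6b shared 117 such words with Ms4a6c and 40 with Ms4a6d. The sources used here do not say how reads that match several genes were counted. Ms4a4c stood at 5.34% to 5.81% of Ms4a4b CPM in the Control libraries, and at 0.308% to 6.59% in the NFAT2 libraries. The part of shared reads in the Ms4a4c level was not tested.

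Other members of the family were expressed at a low level. Ms4a4a, Ms4a4d, Ms4a6c and Ms4a6d were the other Ms4a symbols listed, and Ms4a6c was the highest, at 2.70 ± 0.66 CPM in Control, 2.12 ± 0.67 with NFAT2-CA and 2.37 ± 0.20 with NFAT2-CARIT. Tmem176a and Tmem176b, related tetraspan genes on chromosome 6, had group means of 2.50 to 4.39 CPM. None of these 6 genes passed the filter of 10 CPM in 3 libraries, so none was tested. In a fit of all 16500 genes, Ms4a6d alone of them passed in limma against Control, where 54.6% of all genes passed with NFAT2-CA and 58.7% with NFAT2-CARIT. It stood at 2.26 ± 0.23 CPM in Control, 1.22 ± 0.46 with NFAT2-CA and 1.35 ± 0.24 with NFAT2-CARIT, with log2 differences of -0.58 ± 0.17 (SE, adjusted p = 0.0089) and -0.47 ± 0.17 (adjusted p = 0.024). The FDRs for Ms4a6d in the authors' deposited table are 0.65 and 0.70. Myeloid genes that travel with Ms4a6c and Ms4a6d in macrophages were scarce: Lyz2, Csf1r, Adgre1, Tyrobp and Ms4a7 were not listed, and the 7 listed of 12 myeloid and dendritic markers summed to 18.1 to 19.9 CPM in Control, 18.7 to 21.2 with NFAT2-CA and 19.97 to 23.4 with NFAT2-CARIT. These sums include Ms4a6c and hold opposite changes. Itgam averaged 7.98 CPM in Control, 0.701 with NFAT2-CA and 1.34 with NFAT2-CARIT. In the same order H2-Eb1 averaged 4.14, 10.6 and 7.77 CPM, and Cd68 4.12, 5.75 and 8.22 CPM. None of the 7 passed the filter.

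The genes around the cluster differed from Control by less than Ms4a4b and Ms4a4c did. Within 500 kb of the Ms4a genes 15 other genes were listed, of which 9 were tested. Against Control, 3 rose, 3 fell and 3 did not pass with NFAT2-CA, and 3 rose, 5 fell and 1 did not pass with NFAT2-CARIT, both in limma, beside 72.0% and 75.4% called over all genes tested. Their median log2 differences were -0.14 and -0.25, beside -0.07 and -0.09 over all genes tested. Osbp, an oxysterol-binding protein gene, rose from 104 to 150 and 152 CPM, by 0.52 and 0.55 on the log2 scale. Patl1, which encodes an mRNA decay factor, rose by 0.23 and 0.37. Prpf19, a splicing factor gene, fell by 0.25 in each comparison. Among transcripts of little known role, AW112010 fell from 242 to 188.5 and 182 CPM and Gm336 rose from 8.91 to 12.5 and 16.9 CPM. The authors' deposited table gives higher FDRs for some of these genes. They are 0.49 and 0.44 for Prpf19, 0.41 and 0.077 for Patl1, and 0.45 and 0.049 for Gm336. Osbp (0.00023 and 9.1e-05) and AW112010 (0.0037 and 0.00053) have low FDRs there in both comparisons. Cd5 and Cd6, surface receptors of T cells whose genes lie on the same chromosome beyond this window, fell in both groups. Cd5 went from 518 to 332 and 370 CPM (log2 differences -0.64 and -0.49), and Cd6 from 529.5 to 335 and 396 CPM (-0.66 and -0.42).

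**Figure D2:**
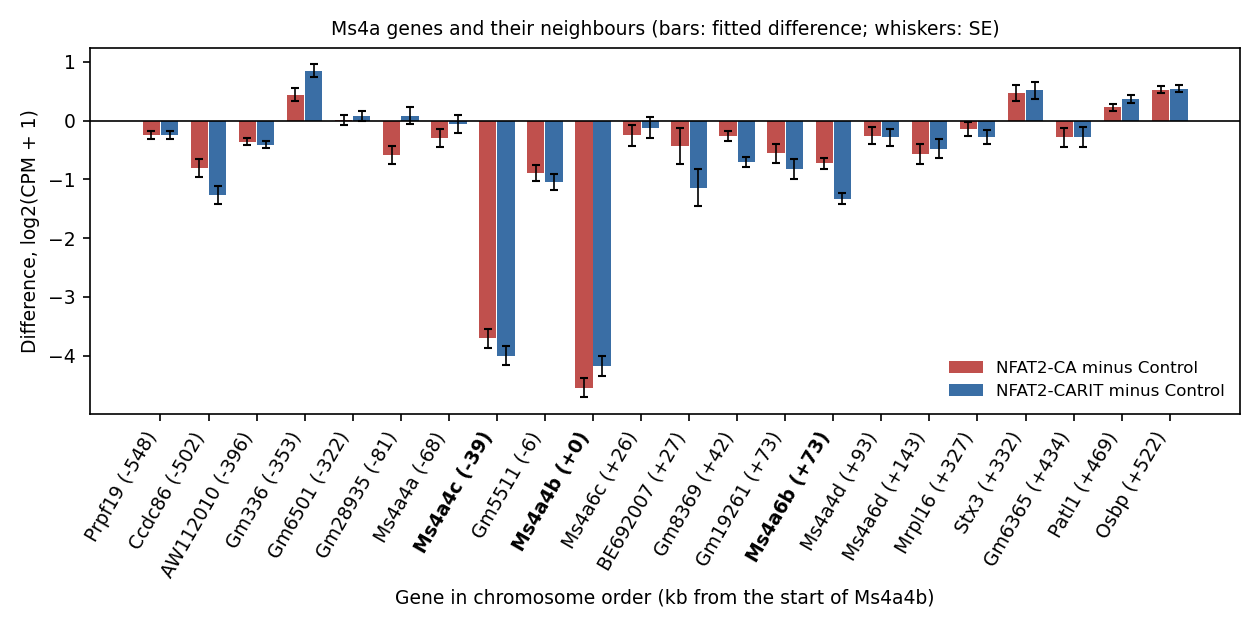
Fitted difference from Control on the log2(CPM + 1) scale, with SE, for the 7 listed Ms4a genes and 15 neighbours in chromosome order, from the fit without a filter on low values; the number in brackets is the distance in kb from the start of Ms4a4b. Ms4a4c and Ms4a4b reach -3.71 or lower, Ms4a6b reaches -0.73 and -1.33, and the genes on either side lie between -1.27 and 0.85.

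Gm8369, which lies between Ms4a4b and Ms4a6b together with Ms4a6c and BE692007, followed the steps of Ms4a6b on a smaller scale. Its coding sequence aligned to that of Ms4a4c over 369 bases at 91.1% identity and to that of Ms4a4b at 89.7%. Gm8369 held 58.4, 60.6 and 68.9 CPM in the Control libraries, 49.5, 47.6 and 58.9 with NFAT2-CA and 37.2, 35.8 and 41.1 with NFAT2-CARIT. The NFAT2-CARIT libraries were below all others, and 1 NFAT2-CA library reached the Control range. Gm8369 fell by 0.27 ± 0.09 (SE) on the log2 scale with NFAT2-CA (adjusted p = 0.011 in limma) and by 0.70 ± 0.09 with NFAT2-CARIT (adjusted p = 1.5e-06). The FDRs for these 2 contrasts in the authors' deposited table are 0.44 and 0.0022. Between the 2 forms its difference was -0.44 ± 0.09 (adjusted p = 0.001 in limma), whereas the authors' deposited table gives this contrast an FDR of 0.43.

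Transcripts on the opposite strand lay across this stretch. BE692007, antisense to Ms4a6c and with 82 opposite-strand 50-base words in common with Ms4a6b, averaged 32.4 ± 5.81 CPM in Control, 24.9 ± 11.1 with NFAT2-CA and 14.3 ± 3.48 with NFAT2-CARIT. It passed in limma only for NFAT2-CARIT against Control (log2 difference -1.14 ± 0.31, SE, adjusted p = 0.011). Gm19261, antisense to the GENCODE start of Ms4a6b, stood at 2.79 ± 0.80, 1.54 ± 0.10 and 1.11 ± 0.20 CPM. Without a record of strand in the counting, reads of these transcripts and of the Ms4a genes opposite them cannot be told apart. Gm5511, a processed pseudogene between Ms4a4c and Ms4a4b, was at 1.435 to 1.547 CPM in Control, 0.211 to 0.599 with NFAT2-CA and 0.195 to 0.238 with NFAT2-CARIT. It shared no 50-base word with the listed Ms4a genes.

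Replicate 3 was the highest library for several genes of the cluster at once. Ms4a4b, Ms4a6b, Gm8369, BE692007 and Ms4a6c were each highest in replicate 3 of all 3 groups, as were 439 of the 9233 genes tested, or 4.75%. Ms4a6c was not among the genes tested, and with NFAT2-CARIT its replicate 3 held 2.486 CPM against 2.479 in replicate 1. Ms4a4a, Ms4a4d, Ms4a6d and AW112010 did not have the pattern in all 3 groups. For Ms4a4b, replicate 3 exceeded the mean of the other replicates 1.25-fold in Control, 1.54-fold with NFAT2-CA and 1.11-fold with NFAT2-CARIT. For Ms4a6b these ratios were 1.29, 1.03 and 1.11, and for Gm8369 they were 1.16, 1.21 and 1.13. Ms4a4c had the pattern in Control, at 1.33, but not in the NFAT2 groups, where it rested on few reads. Over all genes tested, only 2 of the 9 pairs of libraries with the same number had deviations from their group means that correlated above 0.1, so the numbers were not treated as pairs. The part of a shared origin in the pattern was not tested.

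**Figure D3:**
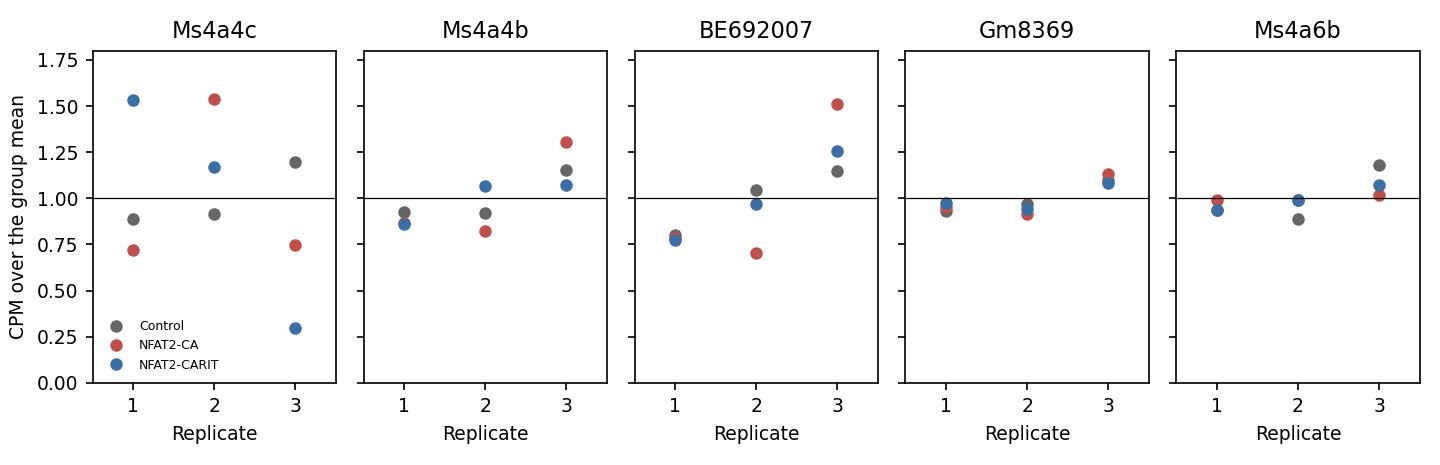
CPM of 5 genes of the cluster in each replicate, divided by the mean of its group, with colours for the 3 groups. Replicate 3 lies above 1 in all groups for Ms4a4b, BE692007, Gm8369 and Ms4a6b, while Ms4a4c scatters on both sides of 1 in the NFAT2 libraries, which hold 34 and 20 reads of it.

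The genes with the most similar profile over the 9 libraries were sought for each Ms4a gene by the root mean square (RMS) difference between log2(CPM + 1) values, each taken minus its own Control mean. For Ms4a4b the nearest was Ly6c2, a surface antigen of T cell and monocyte subsets, with an RMS difference of 0.20. Ly6c2 averaged 47.5 ± 4.33, 1.15 ± 0.29 and 1.38 ± 0.42 CPM in Control, NFAT2-CA and NFAT2-CARIT. Next came Ifi206 (RMS difference 0.51), Ifit1bl1 (0.53), Ms4a4c (0.56) and Cd226 (0.58). Ifi206 and Ifit1bl1 belong to interferon-inducible families, and Cd226 encodes the activating receptor DNAM-1. For Ms4a4c the nearest were Dntt, which encodes terminal deoxynucleotidyl transferase, at 0.24, Ifi203 at 0.33, Cd226 at 0.33, Anxa1 at 0.33 and Ifi206 at 0.34, with Ms4a4b at rank 12. Dntt averaged 26.9 ± 2.89, 1.47 ± 0.15 and 1.11 ± 0.27 CPM.

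Ms4a6b had other neighbours in this measure. Among the nearest were Tsnax at an RMS difference of 0.109, Ccdc115 at 0.113, Tnfrsf13b, which encodes the receptor TACI, at 0.120 and Mtg2 at 0.126. Tnfrsf13b averaged 47.5 ± 1.62 CPM in Control, 27.3 ± 0.57 with NFAT2-CA and 19.3 ± 0.72 with NFAT2-CARIT, the same downward steps as Ms4a6b. Ms4a4b and Ms4a4c stood at an RMS difference of 2.76 and 2.32 from Ms4a6b. The measure groups genes by their change on the log2(CPM + 1) scale, where the added 1 CPM shrinks the change of genes near 0. Genes that it puts close can therefore differ in fold change. The Ly6c2 means were 41.2-fold and 34.4-fold below Control, beside 24.7-fold and 19.2-fold for Ms4a4b. The measure was computed on the values that also chose the 3 genes, so it is a description.

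The gene of the partner receptor was higher in the groups where the 3 Ms4a genes were lower. Tnfrsf18, which encodes GITR, rose from 186 ± 13.4 CPM in Control to 476.5 ± 39.9 with NFAT2-CA and 450 ± 25.1 with NFAT2-CARIT (log2 differences 1.35 ± 0.07 and 1.27 ± 0.07, SE, adjusted p = 5.5e-11 and 1.1e-10 in limma). It did not pass between the 2 forms (-0.08 ± 0.07, adjusted p = 0.41 in limma). Of the GITR list, the receptor with its ligand and adaptors, 4 of 6 genes were tested, and in each comparison with Control 2 rose, 1 fell and 1 did not pass, a share near the 72.0% and 75.4% called over all genes tested. The signalling adaptor gene Traf5 rose from 27.3 to 33.9 and 39.2 CPM, Traf1 fell from 409 to 319 and 298 CPM, and the ligand gene Tnfsf18 was not listed.

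Genes of resting T cells, which include the naive cells that Ms4a4b is known from, were mostly lower as well. Of 20 in the list, 1 rose, 18 fell and 1 did not pass with NFAT2-CA, and 2 rose and 18 fell with NFAT2-CARIT. Over all genes tested, 40.5% were called lower with NFAT2-CA and 43.3% with NFAT2-CARIT. The median log2 differences of the list were -0.96 and -1.02. The list was chosen with earlier results of these data known, so its counts and medians are a description. Txnip fell from 2266 to 410 and 429 CPM, and Ly6c1 from 144.5 to 21.7 and 14.6 CPM. In a list of 15 Th1 genes, of which 12 were tested, 2 rose, 8 fell and 2 did not pass in each comparison with Control. The share called was near the 72.0% and 75.4% over all genes tested, so nothing is read from that count. Cxcr3, a chemokine receptor gene, fell from 146 to 14.9 and 4.69 CPM, while Nkg7, a granule membrane protein gene, rose from 9.47 to 117 and 51.5 CPM. Between the NFAT2 forms the list was mixed: 5 of its genes were higher with NFAT2-CARIT and 3 lower. Over all genes tested, 15.1% were called higher and 18.9% lower. Cxcr3 was lower (-1.47 ± 0.10, SE, adjusted p = 1.7e-08 in limma), and Ccl5 was higher (0.72 ± 0.11, adjusted p = 8.1e-05). The 5 higher genes include Il18rap, with a log2 difference of 0.75 ± 0.13 (SE). All its NFAT2 libraries were under the filter of 10 CPM. Il18rap was in the fit only through Control, so nothing is read from its p.

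Genes of the cell cycle list, a process that Ms4a4b is known to restrain, were mostly higher where Ms4a4b was lower. Of 17 tested, 15 rose, 1 fell and 1 did not pass with NFAT2-CA, and 16 rose and 1 did not pass with NFAT2-CARIT. Over all genes tested, 31.6% were called higher with NFAT2-CA and 32.1% with NFAT2-CARIT. The median log2 differences of the list were 1.93 and 2.15. This list too was chosen with earlier results of these data known, so its counts and medians are a description. Mki67, a marker of dividing cells, rose from 152 ± 19.95 to 874 ± 67.2 and 981 ± 77.2 CPM, and Ccna2, which encodes cyclin A2, from 23.1 to 150.5 and 167 CPM. The genes that rose include inhibitors of division: Cdkn1a, which encodes p21, rose by 0.49 and 1.09 on the log2 scale, Cdkn2c by 1.19 and 1.53, and Cdkn1b by 0.32 and 0.15. Thy1, a T cell surface marker, fell from 4748 to 649 and 657 CPM while Cd4 did not pass in any comparison. The NK cell gene Klrd1 stood at 5.51, 0.345 and 0.448 CPM, with Ncr1 and Klrb1c not listed. The part of cell division or of other cells in the Ms4a levels was not tested.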

How the data were processed

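The authors deposited CPM values per gene for 9 libraries. Every value carries an added 0.0001 CPM, and without it each library sums to the same total. Processing used Partek 10 and the mm10 build, per the submitters' processing notes. The sources used here name no aligner and no strand setting. A second deposited table gives the authors' DESeq2 comparisons as log2 ratios and FDR-adjusted p-values. From steps between low values, 82.0% to 84.7% came out as whole reads within 0.1 read, too few to rebuild counts.

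Genes with at least 10 CPM in at least 3 libraries (9233) were tested on log2(CPM + 1) with limma 3.58.1 (R 4.3.3, trend and robust variance, Benjamini-Hochberg adjustment over all of them, all 9 libraries in 1 fit). The fit was also run on simulated counts with equal depth and few changed genes. Those settings differ from these data, so that run does not check the calls here. Named were the 3 Ms4a genes, other Ms4a and Tmem176 genes, Cd5, Cd6, up to 6 called neighbours, the 5 most similar profiles per gene, and up to 4 called genes per list. Some genes that this rule names are not reported here. The genes and lists were chosen with earlier results of these data known. Other settings tried were a pseudocount of 0.5 or 5 CPM, a filter of 50 CPM or none, TMM factors, quantile normalization, fits of 6 libraries, a block on replicate number, array weights, and fits without each single library. Sequences came from GENCODE M21 and RefSeq.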

Additional observations from a re-analysis of the deposited data

How the results depend on the processing

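For the 3 Ms4a genes no alternative changed the direction of a difference. Ms4a6b kept its call between NFAT2-CARIT and NFAT2-CA in each alternative, at -0.56 to -0.65 when single libraries were left out. For Ms4a4b in that contrast, the fit with the replicate number as a block gave 0.36 (adjusted p = 0.015), array weights gave 0.53 (adjusted p = 0.00166), and leaving out single libraries gave 0.25 to 0.55 (adjusted p from 0.0015, without NFAT2-CA replicate 3, to 0.279). The cause was not tested. With a pseudocount of 5 CPM, Ms4a4b differed from Control by -4.19 (NFAT2-CA) and -3.91 (NFAT2-CARIT), and Ms4a4c by -2.08 and -2.15. With 0.5 CPM, Ms4a4c differed by -4.28 and -4.77, and quantile normalization gave -3.92 for NFAT2-CA. Ms4a4c depends on the pseudocount because it is near 0 under NFAT2. The filter of 50 CPM left 4616 genes, Ms4a4c not among them, with 3417, 3554 and 1648 called in the 3 comparisons (CA and CARIT against Control, CARIT against CA), beside 6650, 6964 and 3142. Array weights called 4821 in the last. With no filter, 11 of 15 neighbours were called for NFAT2-CA against Control, as were 9005 of all 16500 genes. The replicate numbers were shared labels: 2 of 9 same-numbered pairs correlated above 0.1, as did 7 of 18 with different numbers. Depth limits Ms4a4c most, at 1 read in NFAT2-CARIT replicate 3.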
